A study of Mus musculus with 6 samples.

Results

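The genes described here act in the endoplasmic reticulum (ER) of B16 cells, a mouse melanoma line, which were exposed to low oxygen. They are 10 genes chosen by name: the transcription factor Xbp1, the chaperones Hspa5, Hsp90b1, Calr and Dnajb9, the oxidase Ero1a, the protein disulfide isomerases Pdia3, Pdia4 and Pdia6, and the degradation gene Herpud1. The choice was made with earlier results of these data known. All 10 were among the 12393 genes on the Affymetrix array and among the 7746 kept for analysis. They had 22 probe sets, sets of short probes that report 1 transcript each, of which 20 were bright enough to be kept. The 2 left out were second probe sets of Pdia4 and Pdia6, with mean signals of 3.31 and 7.23 units. Each gene is described by its brightest probe set, and the others serve as a check.

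Cells grown with 10% serum were moved to serum-free medium 2 h before the exposure. The exposure was 3 h of normoxia, 3 h of uninterrupted hypoxia (chronic, less than 1% oxygen), or 3 periods of 1 h of hypoxia with 30 min of reoxygenation between them (cyclic). Each regime was collected at its end and again after 1 h more, which was reoxygenation for the hypoxic cells. This gave 6 groups of 1 array each, with no genetic change or drug in any of them. There were no replicates, so no difference between single arrays comes with an error, and all arrays report 1 cell line in culture. Whether the normoxia controls were kept as long as the cyclic regime took in all was not given in the sources used here.

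Proteins that enter the secretory pathway fold in the ER with the help of chaperones, and enzymes there form their disulfide bonds, a reaction that in the end passes electrons to oxygen. When unfolded protein builds up, the sensors IRE1, PERK and ATF6 start the unfolded protein response, in which IRE1 splices the Xbp1 transcript and XBP1 and ATF6 turn on genes for folding and for ER-associated degradation. PERK acts through ATF4, and the hypoxia-inducible factor HIF is known to turn on Ero1a. These arrays do not separate spliced from unspliced Xbp1.

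The ER stress response element, or ERSE, is the sequence through which ATF6 and XBP1 are known to act. It is shown because several members hold it. The members were chosen by name as genes of ER folding and degradation, so the motif counts describe them and test nothing. The ERSE is CCAAT, any 9 bases and CCACG. Promoters from RefSeq (GRCm38.p6, 250 bases before to 50 after the start) were found for 10 of 10 members and were searched on both strands. The element was in 4 of 10 members, 5 times in all, and in 0.119% of the 32851 promoters of the same length that were searched. The second form, ERSE-II (ATTGG, any 1 base and CCACG), was in Herpud1 and in 0.0365% of all promoters. The elements follow, each read in the direction of the motif, with the fixed bases in capitals.
Hspa5, 65 bases before the start: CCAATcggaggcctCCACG
Hsp90b1, 212 bases before the start: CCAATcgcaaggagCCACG
Hsp90b1, 107 bases before the start, reverse strand: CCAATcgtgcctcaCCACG
Pdia6, 98 bases before the start: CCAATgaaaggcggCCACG
Calr, 162 bases before the start, reverse strand: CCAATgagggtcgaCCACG
Herpud1, ERSE-II, 52 bases before the start: ATTGGgCCACG

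Among the other motifs, the shortest ones were common. The CCACG that ends the ERSE, counted also where it lies within one, was in 8 of 10 members and in 32.8% of all promoters. The XBP1 site TGACGTGG was in 0 of 10 members and in 0.676% of all promoters. The site TGATGNAAN, which ATF4 and its partners bind, was in 1 member, Herpud1, and in 3.95% of all promoters. The core letters of HIF sites, ACGTG (part of the XBP1 site) and GCGTG, were in 6 and 7 of 10 members and in 19.6% and 32.4% of all promoters. A match shows only that these letters are in the window.

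The 250 bases before the start are shown for Hspa5 and Herpud1, which were above normoxia in every hypoxia array at their brightest probe sets, and for Ero1a, which had the largest difference of the members, each read towards the gene. Hspa5 lies at chr2:34771840-34772089 on the plus strand and Herpud1 at chr8:94386179-94386428 on the plus strand, and capitals mark their ERSE or ERSE-II. Ero1a lies at chr14:45318573-45318822 on the minus strand, and capitals mark the letters ACGTG and GCGTG on either strand.
Hspa5: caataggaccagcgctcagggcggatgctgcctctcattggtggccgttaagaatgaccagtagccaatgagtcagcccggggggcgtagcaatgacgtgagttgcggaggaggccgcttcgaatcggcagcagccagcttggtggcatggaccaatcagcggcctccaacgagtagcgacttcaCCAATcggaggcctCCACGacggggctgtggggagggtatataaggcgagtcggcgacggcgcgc
Herpud1: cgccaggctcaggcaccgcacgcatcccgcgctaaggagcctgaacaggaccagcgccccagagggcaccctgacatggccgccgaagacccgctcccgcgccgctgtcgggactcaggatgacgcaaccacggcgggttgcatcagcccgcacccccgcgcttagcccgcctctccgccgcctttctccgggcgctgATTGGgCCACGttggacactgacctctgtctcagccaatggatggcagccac
Ero1a: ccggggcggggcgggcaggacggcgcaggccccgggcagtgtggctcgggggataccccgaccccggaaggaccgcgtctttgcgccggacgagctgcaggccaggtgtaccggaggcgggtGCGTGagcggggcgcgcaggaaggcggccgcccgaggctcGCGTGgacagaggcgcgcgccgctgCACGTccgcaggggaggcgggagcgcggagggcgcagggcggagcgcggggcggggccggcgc
The Ero1a window holds GCGTG 128 and 88 bases before the start and ACGTG, on the reverse strand, 63 bases before it, and neither form of the ERSE.

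The median signal of an array was 15.9 to 19.3 units. The array after cyclic hypoxia and reoxygenation correlated least with the others (mean of 0.940 across genes, against 0.962 to 0.966), and the estimates of the linear model that it moved most are also given without it. Melanocyte markers (7 of 8 listed were on the array) summed to 18938 to 24770 units per array. The summed signals were 16.4 to 32.3 for 6 fibroblast markers, 47.3 to 74.1 for 6 immune markers, 3.32 to 17.1 for 5 endothelial markers and 17.7 to 24.7 for 5 keratinocyte markers. Of the hypoxia genes used as a check, Hk2 (hexokinase) rose with hypoxia over both regimes by 2.10 on the log2 scale (SE 0.167, limma, adjusted p = 0.0207). In bulk RNA, fewer cells that express a gene and less RNA per cell cannot be told apart.

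The ER genes did not move as a block at their brightest probe sets. Herpud1 and Hspa5 were above both normoxia arrays in all 4 hypoxia arrays. The share of all genes with this order is not given here, so it is not shown to be particular to them. Xbp1 was high in both cyclic arrays, and Ero1a was high in both chronic arrays and in 1 of 2 cyclic arrays. Hsp90b1 was lowest in the cyclic arrays. The shares of all genes with these orders are not given here either. Calr, Dnajb9 and the 3 protein disulfide isomerases differed from the matching normoxia array by -0.51 to 0.33 on the log2 scale. No brightest probe set passed the test in any contrast, so the values that follow describe these arrays.

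**Figure D1:**
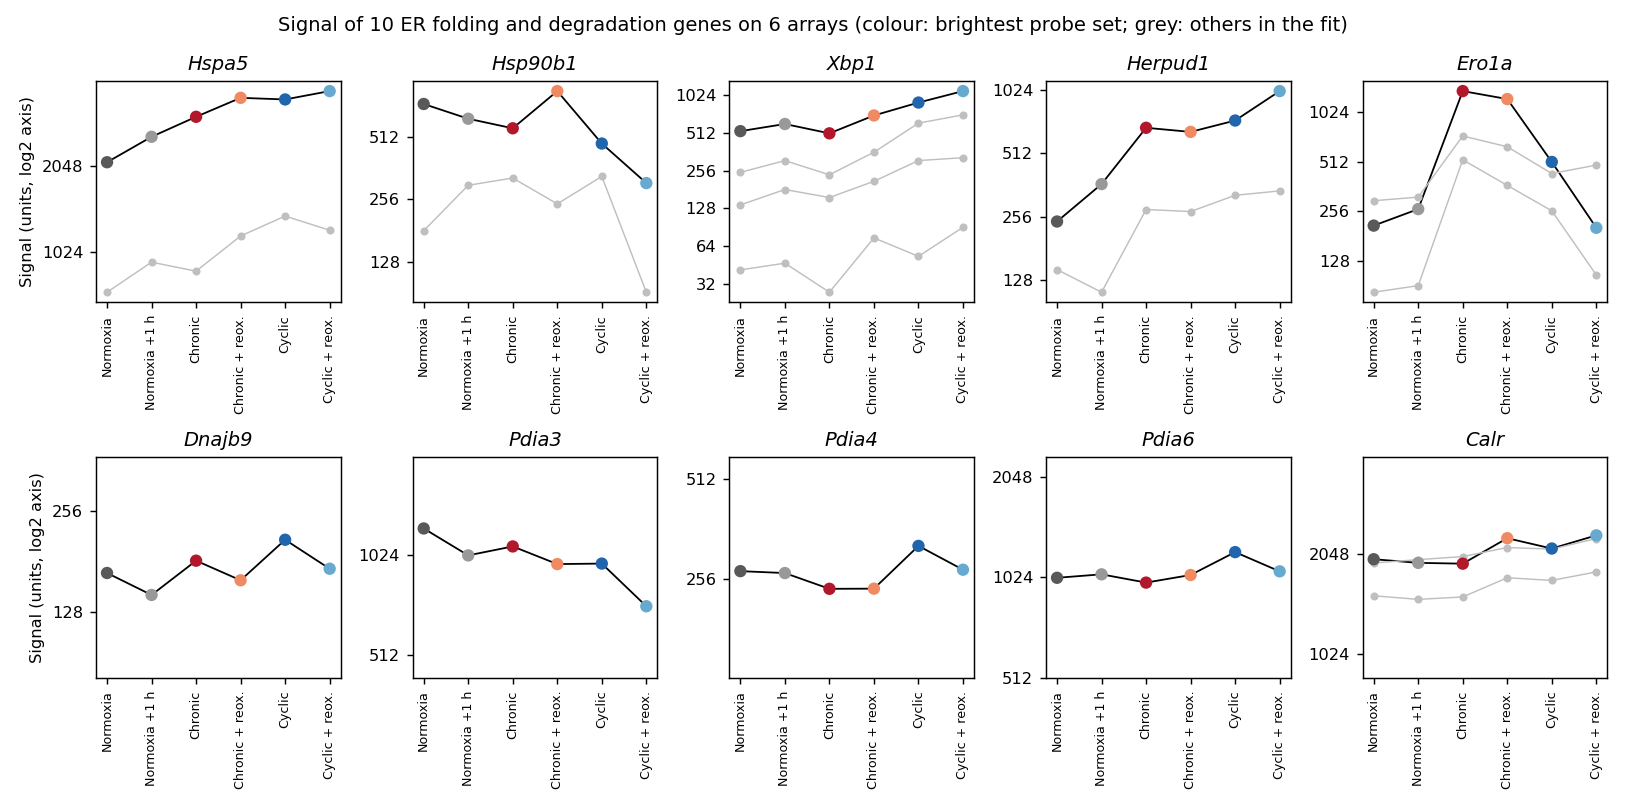
Signal (units, log axis, with a scale of its own in each panel) of the 10 ER genes in each of the 6 arrays, 1 point per array and 1 line per probe set. At their brightest probe sets (coloured points), Herpud1 and Hspa5 lie above both normoxia arrays in all 4 hypoxia arrays, and Ero1a is at 203 units after cyclic hypoxia and reoxygenation.

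XBP1 is the transcription factor that the IRE1 branch switches on by splicing. Xbp1 had a signal of 527 units in normoxia and 600.0 after 1 h more, 506 after chronic hypoxia and 701 after its reoxygenation, and 888 after cyclic hypoxia and 1096 after its reoxygenation. Both cyclic arrays were above the other 4 arrays, an order whose share among all genes is not given here. Set against normoxia collected at the same time, cyclic hypoxia differed by 0.75 and 0.87 on the log2 scale and chronic hypoxia by -0.06 and 0.23. The second-brightest probe set read 248 and 307 units in normoxia, 237 and 358 after chronic hypoxia, and 609 and 709 in the cyclic arrays, log2 differences of 1.30 and 1.21 for cyclic hypoxia. All 4 probe sets were higher in both cyclic arrays than in the matching normoxia array.

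HSPA5, also called BiP, is the main HSP70 chaperone of the ER and holds the stress sensors inactive. Hspa5 had a signal of 2103 units in normoxia and 2577 after 1 h more. It was 3022 after chronic hypoxia, 3517 after its reoxygenation, 3471 after cyclic hypoxia and 3711 after its reoxygenation. The 4 hypoxia arrays did not overlap the normoxia arrays, an order whose share among all genes is not given here. The log2 differences from the matching normoxia array were 0.52 and 0.45 for chronic and 0.72 and 0.53 for cyclic hypoxia. The normoxia arrays differed by 0.29 themselves. A second probe set gave 0.24 and 0.30 for chronic and 0.88 and 0.37 for cyclic hypoxia, and there the array after chronic hypoxia (882 units) lay below that of normoxia with 1 h more (947 units).

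HSP90B1 (GRP94) is the HSP90 chaperone of the ER. Hsp90b1 had a signal of 733 units in normoxia and 623 after 1 h more, 561 after chronic hypoxia and 845 after its reoxygenation, and 474 after cyclic hypoxia and 306 after its reoxygenation. The chronic arrays lay on both sides of normoxia, while both cyclic arrays were below it. The log2 differences were -0.39 and 0.44 for chronic and -0.63 and -1.03 for cyclic hypoxia. A second probe set, at 91.8 to 330 units, gave the opposite sign in 3 of these 4 contrasts, with 0.84 and -0.30 for chronic and 0.86 and -1.70 for cyclic hypoxia. The probe sets share a lower signal only after cyclic hypoxia and reoxygenation, which was the array least like the rest.

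Calr encodes calreticulin, a chaperone that binds the sugars of new glycoproteins. It had a signal of 1969 and 1921 units in normoxia, 1910 and 2276 in the chronic arrays, and 2120 and 2321 in the cyclic arrays. These levels lie close together, with log2 differences of -0.04 and 0.25 for chronic and 0.11 and 0.27 for cyclic hypoxia. The other 2 probe sets gave -0.01 to 0.22 for chronic and 0.14 to 0.27 for cyclic hypoxia. Dnajb9 (ERdj4), a J-domain partner of HSPA5, had 167 and 144 units in normoxia, 182 and 159 in the chronic arrays, and 210.3 and 172 in the cyclic arrays. Its log2 differences were 0.12 and 0.15 for chronic and 0.33 and 0.26 for cyclic hypoxia, and the normoxia arrays differed by -0.22.

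ERO1A reoxidises protein disulfide isomerases and passes the electrons to oxygen. Ero1a had a signal of 209.7 units in normoxia and 264 after 1 h more, 1367 after chronic hypoxia and 1223 after its reoxygenation, and 509 after cyclic hypoxia and 203 after its reoxygenation. Both chronic arrays were far above normoxia, the cyclic array lay between, and the cyclic array with reoxygenation was back at the level of normoxia. The log2 differences were 2.70 and 2.21 for chronic hypoxia, 1.28 for cyclic hypoxia and -0.38 after its reoxygenation. A probe set at 82.9 units in normoxia gave the same order, with 2.66 and 2.02 for chronic and 1.64 and 0.21 for cyclic hypoxia. The remaining one gave smaller differences, 1.30 and 1.01 for chronic and 0.55 and 0.64 for cyclic hypoxia, and was still above normoxia after cyclic hypoxia and reoxygenation.

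The protein disulfide isomerases, which make and shuffle disulfide bonds, differed less. Pdia3 (ERp57), which works with calreticulin, had 1227 and 1019 units in normoxia, 1084 and 959.7 in the chronic arrays, and 963 and 718 in the cyclic arrays. It was lower than the matching normoxia array in all 4 hypoxia arrays, by log2 differences from -0.09 to -0.51, and the normoxia arrays differed by -0.27. How many of all genes were lower in all 4 is not given here. Pdia4 (ERp72) had 271 and 267 units in normoxia, 239.9 and 240.1 in the chronic arrays, and 322 and 274 in the cyclic arrays. Pdia6 (P5) had 1021 and 1046 units in normoxia, 988 and 1041 in the chronic arrays, and 1219 and 1068 in the cyclic arrays. Both were highest after cyclic hypoxia, at 0.25 and 0.26 on the log2 scale against normoxia.

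HERPUD1 is an ER membrane protein that helps to assemble the complex for ER-associated degradation, which sends misfolded proteins to the proteasome. Herpud1 had a signal of 243 units in normoxia and 366 after 1 h more, 676 after chronic hypoxia and 647 after its reoxygenation, and 732 after cyclic hypoxia and 1009 after its reoxygenation. No hypoxia array overlapped the normoxia arrays, and how many of all genes share this order is not given here. The log2 differences were 1.48 and 0.82 for chronic and 1.59 and 1.46 for cyclic hypoxia, while the normoxia arrays differed by 0.59. The second probe set gave 0.95 and 1.27 for chronic and 1.17 and 1.60 for cyclic hypoxia, and its normoxia arrays differed by -0.36, the opposite sign. The smaller difference at the second collection of chronic hypoxia at the brightest probe set was therefore absent at the other.

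**Figure D2:**
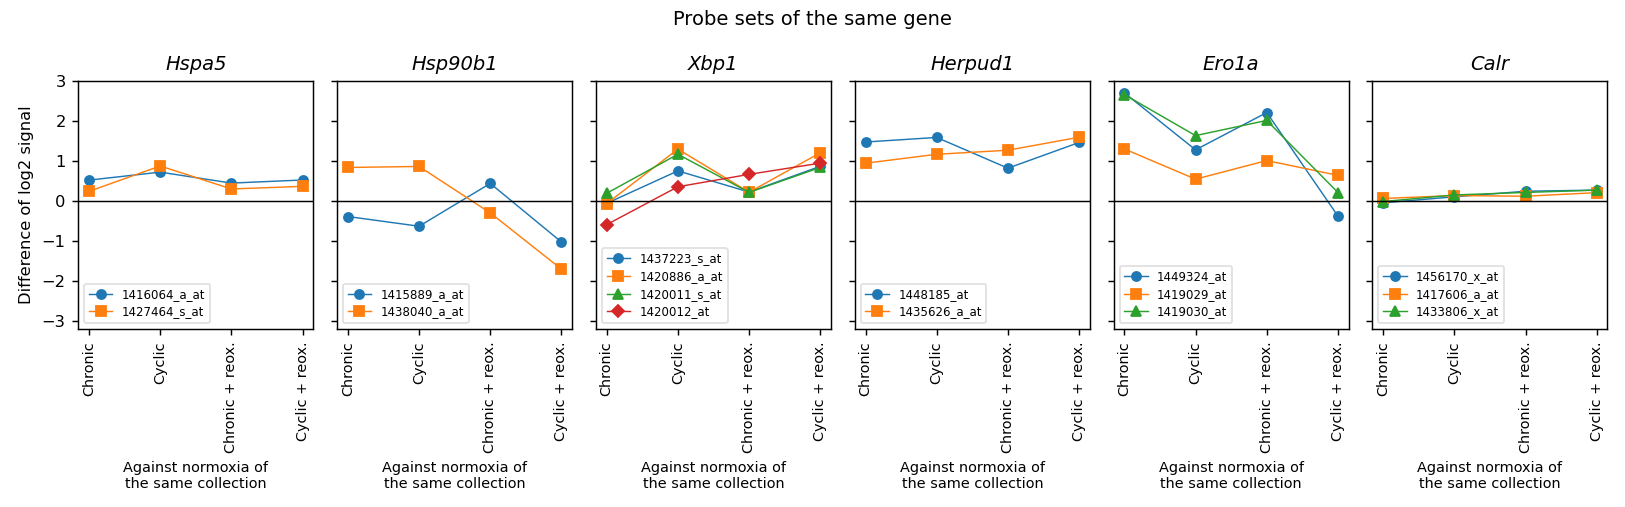
Log2 difference of each hypoxia array from the matching normoxia array, 1 point per kept probe set of the members with more than 1, and 1 line joining the points of a probe set. The Xbp1 and Herpud1 probe sets keep their sign in both cyclic contrasts, and those of Hsp90b1 part in 3 of 4 contrasts.

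For scale, the SD of the difference between the normoxia arrays was 0.21 among the 3573 genes whose mean signal reached 100 units (bright genes, to which all 10 members belong), and 95% of these differed by less than 0.43 in size. Because the members were chosen with earlier results of these data known, the shares of all genes here and below give a scale and test nothing. After chronic hypoxia 2 members, Herpud1 and Ero1a, were 2-fold or more higher, against 2.53% of all genes and 1.46% of bright genes. After cyclic hypoxia it was the same names, against 2.12% and 1.04%. At the second collection Ero1a was 2-fold higher after chronic hypoxia, against 2.98% and 1.06%. After cyclic hypoxia and reoxygenation Herpud1 was 2-fold higher, against 3.56% and 0.98%, and Hsp90b1 was 2-fold lower, against 10.6% and 7.61%. Between the normoxia arrays 0 members differed by this much, where 0.865% of all genes were higher and 1.87% lower, and 0% and 0.028% of bright genes.

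With 1.5-fold as the limit, Hspa5 and Xbp1 joined Herpud1 and Ero1a after cyclic hypoxia, 4 members against 8.44% of all and 7.08% of bright genes higher. After chronic hypoxia the count stayed at 2, against 7.91% and 5.12%. At the second collection it was 2 after chronic hypoxia (Herpud1 and Ero1a), against 8.82% and 2.99%, and 2 after cyclic hypoxia (Xbp1 and Herpud1), against 10% and 4.81%. The median log2 difference of the members was -0.05 after chronic and 0.29 after cyclic hypoxia, and 0.24 and 0.15 at the second collection, against -0.03 to 0.00 for all 7746 genes. At each collection both regimes are set against 1 and the same normoxia array.

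**Figure D3:**
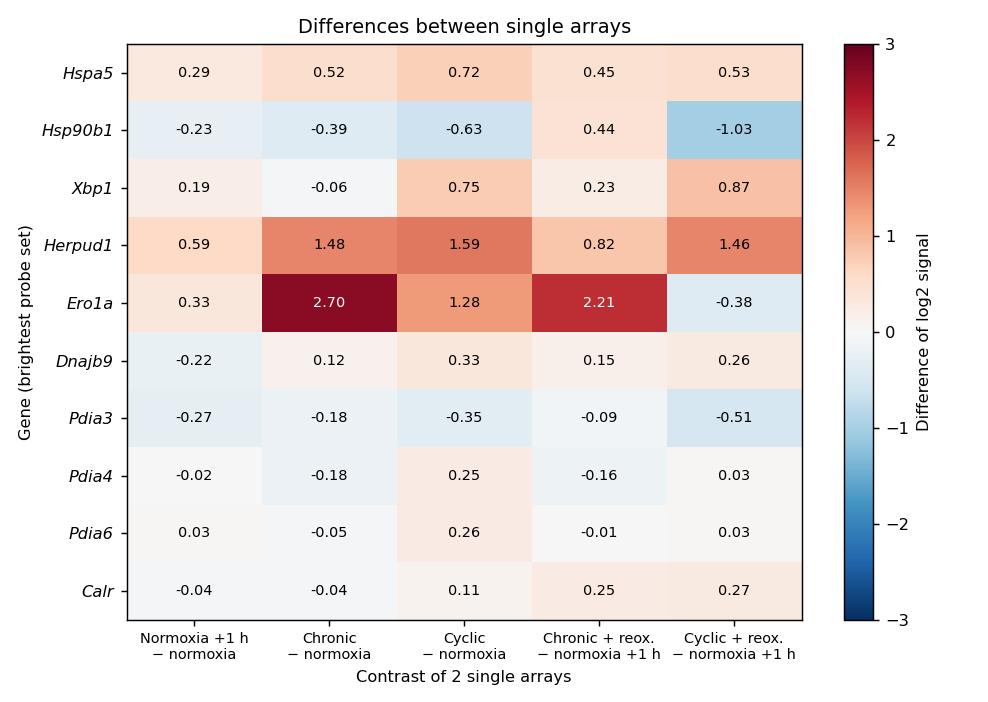
Log2 difference from the matching normoxia array for the 10 ER genes, by regime and collection, and between the normoxia arrays. Each cell is 1 gene in 1 contrast, with its value, red for higher and blue for lower. Herpud1 is between 0.82 and 1.59 in all 4 hypoxia contrasts, and Ero1a runs from 2.70 after chronic hypoxia to -0.38 after cyclic hypoxia and reoxygenation.

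A linear model in limma with regime and collection (2 residual degrees of freedom) used the 2 collections in place of replicates. A change in the last hour common to all regimes is fitted, and the error holds changes in that hour that differed between regimes. For hypoxia of both kinds together it gave Herpud1 1.34 (SE 0.174, adjusted p = 0.0620), Hspa5 0.56 (SE 0.0917, adjusted p = 0.142), Ero1a 1.46 (SE 0.297, adjusted p = 0.265) and Xbp1 0.45 (SE 0.137, adjusted p = 0.419). No member passed at 0.05, and 2 genes of 7746 did, 0.0258%, both higher (0% lower). At an unadjusted p under 0.05 these 4 members were higher, against 4.87% of all and 6.35% of bright genes, and 0 lower, against 4.51% and 4.48%. The median estimate was 0.18 over the members and -0.03 over all genes.

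For chronic hypoxia the fit gave Ero1a 2.46 (SE 0.343, 95% interval 1.67 to 3.25, adjusted p = 0.0630). Herpud1 had 1.15 (0.69 to 1.61, adjusted p = 0.165) and Hspa5 0.49 (0.24 to 0.73, adjusted p = 0.316). Xbp1 had 0.08, with an interval from -0.28 to 0.45. The first 3 of these were higher at an unadjusted p under 0.05, against 3.98% of all and 5.12% of bright genes, and 0 members were lower, against 1.54% and 1.37%. After adjustment no member passed, against 0.103% of all genes higher and 0% lower.

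For cyclic hypoxia it gave Herpud1 1.53 (95% interval 1.06 to 1.99, adjusted p = 0.0763). Xbp1 had 0.81 (0.45 to 1.18, adjusted p = 0.122) and 1.25 at its second-brightest probe set (adjusted p = 0.0929). Hspa5 had 0.62 (0.38 to 0.87, adjusted p = 0.109). Ero1a had 0.45 (-0.34 to 1.24, adjusted p = 0.575) at its brightest probe set, and 0.60 (0.18 to 1.01, adjusted p = 0.201) and 0.92 (0.19 to 1.66, adjusted p = 0.243) at the others. Without the array after cyclic hypoxia and reoxygenation the brightest gave 1.16 (adjusted p = 0.0929). Hsp90b1 had -0.83 (-1.45 to -0.20, adjusted p = 0.225), but -0.42 without that array (adjusted p = 0.546), and -0.42 at its second probe set (-1.56 to 0.72, adjusted p = 0.732). Pdia3 had -0.43 (-0.76 to -0.09, adjusted p = 0.236). At an unadjusted p under 0.05 there were 3 members higher, against 5.44% of all and 7.19% of bright genes, and 2 lower, against 10.3% and 9.43%, and the limma fit called 0 genes of 7746 after adjustment.

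**Figure D4:**
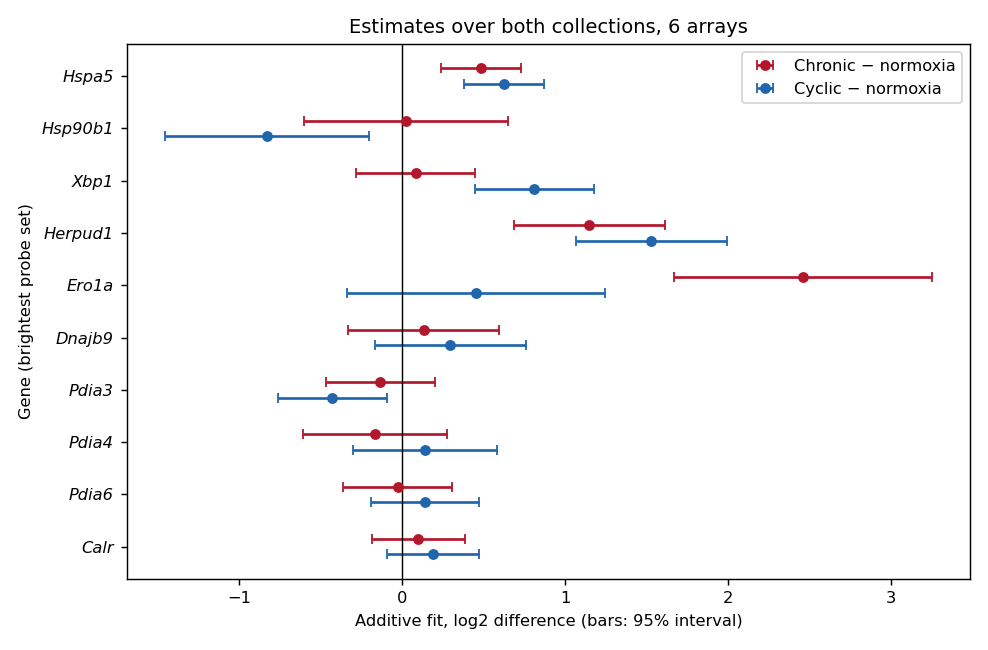
Estimates of the linear model for chronic and for cyclic hypoxia against normoxia (log2), with 95% intervals, for the brightest probe set of each of the 10 ER genes. The interval of Herpud1 lies above 0 in both regimes, that of Ero1a in chronic hypoxia only and that of Xbp1 in cyclic hypoxia only, while the other Ero1a probe sets, not drawn, have intervals above 0 in cyclic hypoxia too.

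These results rested on the scaling and on single arrays. Herpud1 passed for both kinds of hypoxia together with quantile normalization (adjusted p = 0.0257) and with median centring (adjusted p = 0.00254). Without the array after cyclic hypoxia and reoxygenation, the estimates were 1.29 for Herpud1, 1.81 for Ero1a and 0.60 for Hspa5. Ero1a passed for chronic hypoxia with quantile normalization (2.49, limma, adjusted p = 0.0181), and had 2.46 without that array. The share of all genes that passed under each of these settings is not given here, so the passes are not shown to be particular to the members. Leaving out either cyclic array leaves 1 for that regime, which is then assumed to vary like the other groups. Without the array after cyclic hypoxia, the estimates for cyclic hypoxia describe the single array after cyclic hypoxia and reoxygenation.

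For the end of hypoxia alone, a second model let the hypoxia effect differ between the collections and also fitted the gap between chronic and cyclic hypoxia. Its 1 residual degree of freedom is how far that gap differed between the collections, so the gap itself is not in the error. There the probe set of Ero1a at 82.9 units in normoxia rose by 2.15 (SE 0.326, adjusted p = 0.0446), the only one of the members' probe sets to pass. The brightest probe set of Ero1a gave 1.99 (SE 0.323, adjusted p = 0.0602) and the remaining one 0.92 (adjusted p = 0.360). Herpud1 had 1.53 (SE 0.256, adjusted p = 0.0633) and Hspa5 0.62 (SE 0.158, adjusted p = 0.304). Of 7746 genes 0.0645% passed, all higher.

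Cyclic was compared with chronic hypoxia in the first model, where limma called 0 genes. With reoxygenation between its periods of hypoxia, the cyclic regime took longer than the chronic one, and length and regime cannot be told apart. Xbp1 was 0.73 higher after cyclic hypoxia (95% interval 0.36 to 1.09, adjusted p = 0.204), and the differences at the separate collections were 0.81 and 0.64. Ero1a had -2.01 (SE 0.343, adjusted p = 0.148), from -1.42 at the end of hypoxia and -2.59 after the last hour. Hsp90b1 had -0.85 (SE 0.271, adjusted p = 0.258), from -0.24 and -1.47. Without the array after cyclic hypoxia and reoxygenation, an alternative chosen after seeing the data, Ero1a had -1.30 (adjusted p = 0.0958), Hsp90b1 -0.45 (adjusted p = 0.601) and Xbp1 0.74 (adjusted p = 0.295). At an unadjusted p under 0.05 Xbp1 was higher, against 4.14% of all and 5.4% of bright genes, and Ero1a and Hsp90b1 lower, against 11.1% and 10.4%. For Herpud1 the difference was 0.38 (-0.08 to 0.84, adjusted p = 0.428) and for Hspa5 0.14 (-0.11 to 0.38, adjusted p = 0.583), so these intervals hold no difference as well as a moderate one.

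The last hour divided the members differently in each regime at their brightest probe sets. During reoxygenation after chronic hypoxia Ero1a differed by -0.16 and Herpud1 by -0.06 on the log2 scale, while Hsp90b1 differed by 0.59 and Xbp1 by 0.47. The second Hsp90b1 probe set differed by -0.41 there, the opposite sign. After cyclic hypoxia Ero1a differed by -1.32 and Hsp90b1 by -0.63, while Herpud1 differed by 0.46 and Xbp1 by 0.30. Over the same hour in normoxia Herpud1 differed by 0.59, Hspa5 by 0.29 and Xbp1 by 0.19 at their brightest probe sets. The second Herpud1 probe set differed by -0.36, the opposite sign. The values of Hspa5 and Xbp1 lie within the 0.43 that held 95% of bright genes in this contrast. A 2-fold or larger difference in this hour was found in 1 member, Ero1a after cyclic hypoxia, against 7.47% of all and 6.1% of bright genes lower in that contrast. This count is over brightest probe sets: the other Ero1a probe sets differed by 0.17 and -1.29, and the second of Hsp90b1 by -1.84.

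Over the 6 arrays the log2 signals of Hspa5 and Herpud1 had a Pearson correlation of 0.963, and those of Hspa5 and Ero1a 0.388. Pdia4 and Pdia6 correlated at 0.896, Xbp1 and Pdia3 at -0.901, and Xbp1 and Ero1a at -0.290. All these values share the same 6 libraries and their scaling. Among 3572 other bright genes, those most like Hspa5 were Ctsb, a lysosomal protease (0.997), Tecpr1, which acts in autophagy (0.991), and Alg2, a mannosyltransferase of N-glycan synthesis (0.988). Those most like Herpud1 were Rab40c (0.998), Errfi1, an inhibitor of EGF receptor signalling (0.993), and Tecpr1 (0.985). Those most like Ero1a were Ccng2, cyclin G2 (0.988), Sap30 of the Sin3 corepressor (0.971) and Dusp1, a MAP kinase phosphatase (0.963). With so many genes and 6 points, high values occur readily.

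Other genes of the pathway, taken from lists by function, are given for context. The counts are for hypoxia of both kinds together at an unadjusted p under 0.05, where 4.87% of all and 6.35% of bright genes were higher and 4.51% and 4.48% lower. Of 17 other ER chaperones and cofactors kept, 2 were higher and 0 lower, with a median estimate of -0.06. Creld2, an ER stress protein, had 218 and 337 units in normoxia, 415 and 338 in the chronic arrays, and 530 and 614 in the cyclic arrays, an estimate of 1.07 for cyclic hypoxia (adjusted p = 0.136). Manf, a secreted ER stress protein, had 1325 and 1902 units in normoxia and 2200.5 and 2938 in the cyclic arrays (0.68, adjusted p = 0.120), and Dnajc3, an HSPA5 partner, -0.66 there. Of 12 other isomerases and oxidases, 0 were higher and 0 lower, with a median of -0.05. Tmx1, a membrane-bound isomerase, had 759 and 754 units in normoxia and 749 and 334 in the cyclic arrays.

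Of 20 other degradation genes, 2 were higher and 0 lower, with a median of 0.05. At the end of cyclic hypoxia 17 of 20 were above normoxia, with a median log2 difference of 0.24, against 3645 of 7746 genes and a median of -0.03. At the second collection 12 of 20 were above, with a median of 0.08, against 3893 of 7746 genes and a median of 0.00. There 2 of 20 were 2-fold or more lower, near the share of 10.6% of all genes (7.61% of bright genes). Selenos, a retrotranslocation factor, had 502 and 536 units in normoxia and 780 and 813 in the cyclic arrays (0.62, adjusted p = 0.158). Edem3, which trims the sugars of misfolded proteins, had 190.0 and 179 units in normoxia and 149.9 and 54.1 in the cyclic arrays. Edem3 differed by -1.73 on the log2 scale after cyclic hypoxia and reoxygenation, where Herpud1 differed by 1.46.

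Of 14 other sensors and factors of the response, 5 were higher, against 4.87% of all genes, and 0 lower, against 4.51%, with a median of 0.18. Ddit3 (CHOP), a transcription factor of the PERK branch, had 137 and 177 units in normoxia, 420.05 and 719.5 in the chronic arrays, and 156 and 243 in the cyclic arrays. It rose with chronic hypoxia by 1.82 (adjusted p = 0.0308) and had 0.32 with cyclic hypoxia (adjusted p = 0.490). Atf4 had 695 and 811 units in normoxia, 1415 and 1387 in the chronic arrays, and 942 and 1198 in the cyclic arrays (0.90, adjusted p = 0.145, and 0.50, adjusted p = 0.201). Ddit3, the one call in these lists, was higher with chronic hypoxia, while Xbp1 was highest in the cyclic arrays. Not every gene of this list had the order of Ddit3. Eif2ak3, which encodes PERK, had 100.1 and 109.9 units in normoxia, 137 and 144 in the chronic arrays, and 232 and 102 in the cyclic arrays. Creb3 had an estimate of 0.35 with chronic and 0.76 with cyclic hypoxia, and neither gene was called.

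Of 20 genes of ER translocation and glycosylation, 0 were higher and 0 lower, with a median of -0.02. Of 6 ER hydroxylases that use oxygen, 2 were higher and 0 lower, with a median of 0.36. Plod2, a lysyl hydroxylase of collagen, had 117 and 125 units in normoxia, 291 and 200.2 in the chronic arrays, and 144 and 76.3 in the cyclic arrays. Like the brightest probe set of Ero1a it was highest in the chronic arrays and lowest after cyclic hypoxia and reoxygenation. The other Ero1a probe sets were above normoxia in that last array.

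**Figure D5:**
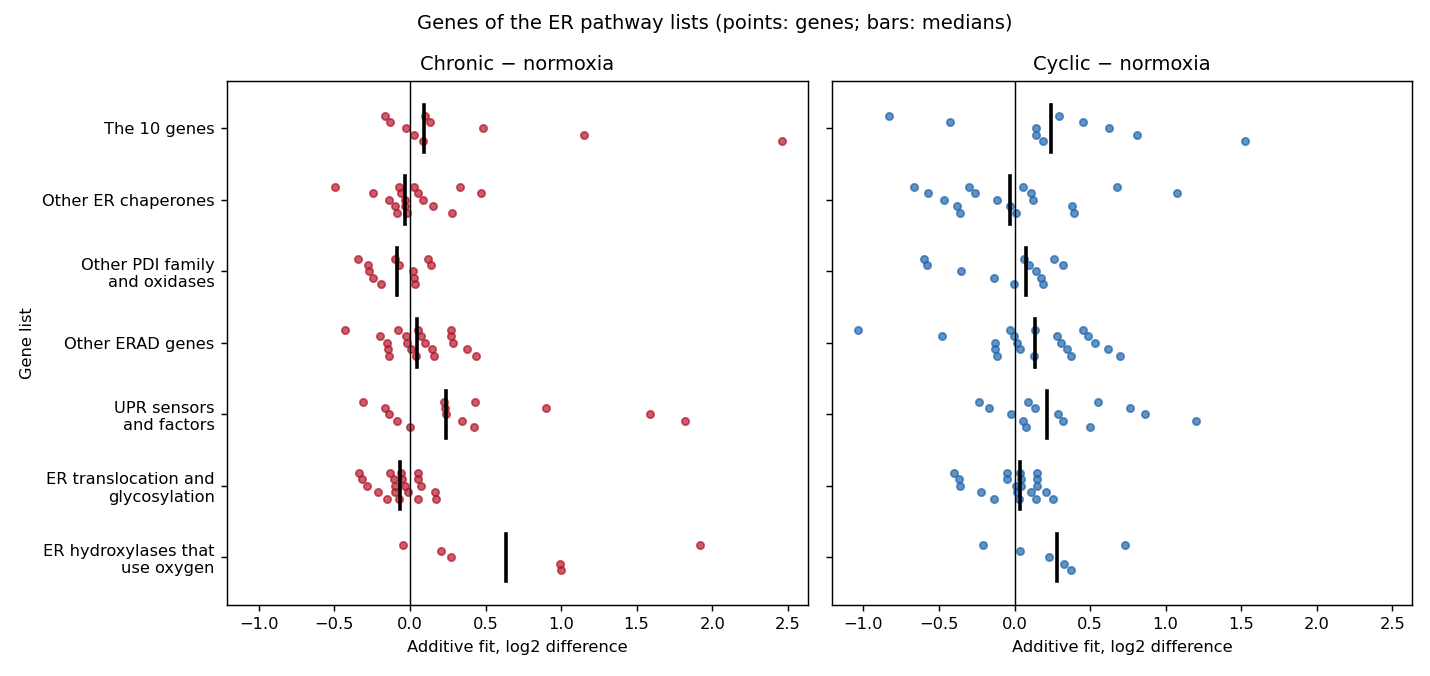
Estimates of the linear model (log2) for the genes of 6 pathway lists and the 10 members, 1 point per gene, for chronic and for cyclic hypoxia on the same scale. The median of the degradation genes is 0.05 for chronic and 0.13 for cyclic hypoxia, and that of the hydroxylases 0.63 and 0.28.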

How the data were processed

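Total RNA (5 µg) of each culture was hybridised as biotin-labelled cRNA to 1 Affymetrix array. The deposited values are signal intensity on a linear scale, 1 column per array, made with GCOS per the submitters' processing notes. Its version and algorithm are not given in the sources used here, and array signals carry no counts. The trimmed mean of every column (2% off each end) was 100, so the authors' scaling was kept.

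Values under the 20th percentile (2.10 units) were set to it before log2. Probe sets with a mean under the 40th percentile (8.33 units) were dropped, as were 64 control probe sets, and 13556 remained. Two-sided moderated tests were run in limma 3.58.1 (R 4.3.3) with an intensity trend, with Benjamini-Hochberg adjustment over all 13556 at 0.05. The fits were also run on simulated data, with noise drawn from the spread between the normoxia arrays. That simulation held no differences between regimes in the last hour, so it does not show how the tests behave here. Each gene was represented by its brightest probe set. The members and gene lists were chosen with earlier results of these data known. Text names all members, up to 4 genes per list with the largest estimate at a signal of at least 100 units, any called, and the 3 genes most like Hspa5, Herpud1 and Ero1a. Protein sequences were not used here. Alternatives were other scalings, floors, filters and probe sets, and leaving out each array.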

Additional observations from a re-analysis of the deposited data

Results flagged for a closer look

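Pdia4 and Pdia6 stood below the matching normoxia array at both collections of chronic hypoxia and above it at both collections of cyclic hypoxia. For Pdia4 the log2 differences were -0.18 and -0.16 after chronic and 0.25 and 0.03 after cyclic hypoxia, and cyclic against chronic hypoxia gave 0.31 in limma (adjusted p = 0.496). For Pdia6 they were -0.05 and -0.01 after chronic and 0.26 and 0.03 after cyclic hypoxia, and the test of the difference gave 0.17 (adjusted p = 0.626). Neither difference passed the test, and most of these values are smaller than the SD of 0.21 between the normoxia arrays.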

How the results depend on the processing

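The number of members that passed in limma depended on the scaling. For both kinds of hypoxia together 0 became 1 with quantile normalization, 2 with median centring and 1 with an offset of 16 units, and 0 to 3 when single arrays were left out. For chronic hypoxia 0 became 1 with each of these 3 settings and 0 to 2 without single arrays. For cyclic hypoxia it became 1 with quantile normalization, 3 with median centring and 0 to 4 without single arrays, and at the end of hypoxia 3 and 2 with these scalings. It stayed at 0 without the filter and without the trend. Median centring moved the median of all genes to -0.14 after chronic and 0.15 after cyclic hypoxia with reoxygenation. The share of all genes that passed under each of these settings is not given here, so the counts are not shown to be particular to the members. A fit without a single array leaves 1 array for its regime. The cause was not tested.

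Members at least 2-fold higher after chronic hypoxia went from 2 to 1 with second-brightest probe sets. With reoxygenation they went from 1 to 2 at 1.5-fold and with second-brightest probe sets. After cyclic hypoxia they went from 2 to 4 at 1.5-fold, and with reoxygenation from 1 to 2 with median centring, at 1.5-fold and with second-brightest probe sets. Shares of all genes are given above for the 2-fold and 1.5-fold limits, and not for the other settings. Estimates that changed sign were all uncalled. Hsp90b1 in chronic hypoxia had -0.025 with median centring, and -0.49 to 0.54 without single arrays. Pdia4 over both kinds had 0.00083 with quantile normalization, 0.029 with median centring and -0.069 to 0.045 without single arrays. Pdia6 in chronic hypoxia had 0.00039 with quantile normalization and -0.10 to 0.0499 without single arrays, and over both kinds -0.0039 to 0.12. Without single arrays the ranges were -0.0137 to 0.21 for Calr and -0.029 to 0.20 for Xbp1 in chronic hypoxia, and -0.25 to 1.16 for Ero1a in cyclic hypoxia. No paired analysis was possible because each group has 1 array and the labels give no replicate numbers. With 6 arrays, their number sets the precision.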
